A study of Mus musculus with 8 samples.

Results

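The collagen genes of the mouse hippocampus were taken as every gene symbol made of Col, a number, the letter a and a number, which gave 44 of the 24421 genes in the deposited count tables. They were grouped by textbook collagen class into 11 fibrillar, 6 basement membrane, 6 beaded filament, 9 FACIT, 3 short-chain network, 2 multiplexin, 4 transmembrane, 1 anchoring fibril and 2 other genes. The rule reads only the symbol. Levels are in CPM, the raw count per 1000000 counts of its library. The 44 genes together held between 348 and 1211 CPM of a library.

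Collagens are secreted or membrane-bound proteins of chains wound into a triple helix, and each gene codes for one kind of chain. Fibrillar collagens form the tensile fibres of connective tissue, type IV collagens form the sheet-like network of basement membranes, and beaded filament (type VI) collagens link fibres to basement membranes and cells. FACIT collagens sit on the surface of fibrils, and transmembrane collagens are anchored in the plasma membrane. The brain parenchyma holds few fibrils, and its collagen lies mainly in the meninges, in the choroid plexus and around blood vessels, while a few members, such as Col25a1, are made by neurons.

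The series concerns restricted fetal growth and the hippocampus. Pregnant mice received dexamethasone, a synthetic glucocorticoid, at 1 mg/kg per day by intraperitoneal injection for 5 days from day 14.5 after conception (the group labelled IUGR), or the same volume of normal saline (NS). The hippocampus of their wildtype C57BL/6J offspring, all labelled male, was sampled at postnatal day 3 and at week 8, with 2 libraries in each of the 4 groups and no other allele or agent. The labels do not say that the libraries of a group came from separate animals or litters, so p-values measure the spread between these libraries, which may be technical.

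Library totals ran from 13030277 to 18993050 counts. Several libraries stood apart. At week 8 the small RNA gene Rpph1 held 7.69% and 6.49% of the counts in replicate 1 of NS and IUGR but 0 and 2 counts in replicate 2. The summed level of 15 hippocampal neuron markers was 1529 and 1458 CPM in replicate 1 against 6688 and 6210 CPM in replicate 2. Most of this gap was Camk2a, at 682 and 762 CPM in replicate 1 and 5320 and 4850 in replicate 2. Over the 15 markers the median difference of replicate 2 from replicate 1 in log2(CPM + 1) was 0.81 in NS and 1.17 in IUGR. It was below 0 for 4 markers in NS and 2 in IUGR. At postnatal day 3, 4998 and 5130 counts of Xist, the RNA of the inactive X chromosome, were present in replicate 2 of NS and IUGR against 4 and 81 in replicate 1, which goes against the male label of both replicates 2. The summed level of 15 choroid plexus markers ranged from 74.5 to 6893 CPM. Within-replicate values are therefore given beside the results. In bulk tissue, fewer cells of a type and less RNA per cell cannot be told apart.

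Promoters are shown for genes with age differences described below, Col3a1 and Col6a3 (lower at week 8) and Col25a1 and Col11a2 (higher at week 8). Each sequence is the 250 bases upstream of the RefSeq transcription start, 5′ to 3′ on the strand of the gene, in GRCm38.p6. Capitals mark a TATA box (TATAAA, or TTTATA on the other strand), a CCAAT box (CCAAT or ATTGG) or a GC box (GGGCGG or CCGCCC).
Col3a1, chr1:45311288-45311537, plus strand: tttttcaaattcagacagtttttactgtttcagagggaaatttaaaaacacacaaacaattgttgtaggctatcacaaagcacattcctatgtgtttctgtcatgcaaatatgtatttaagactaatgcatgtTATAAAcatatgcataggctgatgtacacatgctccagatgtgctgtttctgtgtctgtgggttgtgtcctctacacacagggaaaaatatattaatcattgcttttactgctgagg
Col6a3, chr1:90843972-90844221, minus strand: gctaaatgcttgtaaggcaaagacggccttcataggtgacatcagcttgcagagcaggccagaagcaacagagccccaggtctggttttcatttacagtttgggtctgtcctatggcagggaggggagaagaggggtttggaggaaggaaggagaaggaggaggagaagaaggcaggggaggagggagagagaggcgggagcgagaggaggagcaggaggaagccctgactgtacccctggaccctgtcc
Col25a1, chr3:130180595-130180844, plus strand: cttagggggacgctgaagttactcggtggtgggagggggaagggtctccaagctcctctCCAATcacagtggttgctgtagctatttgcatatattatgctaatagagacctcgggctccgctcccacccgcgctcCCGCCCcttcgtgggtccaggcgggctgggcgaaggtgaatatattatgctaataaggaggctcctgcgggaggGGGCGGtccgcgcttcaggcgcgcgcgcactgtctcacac
Col11a2, chr17:34038888-34039137, plus strand: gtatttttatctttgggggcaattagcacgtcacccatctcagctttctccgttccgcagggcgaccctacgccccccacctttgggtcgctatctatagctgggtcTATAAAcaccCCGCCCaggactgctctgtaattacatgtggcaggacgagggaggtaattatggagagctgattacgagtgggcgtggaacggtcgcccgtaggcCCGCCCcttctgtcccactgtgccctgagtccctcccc

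The Col3a1 window holds 1 TATA box and no GC box, the Col6a3 window holds none of these motifs, the Col25a1 window holds 1 CCAAT box and 2 GC boxes, and the Col11a2 window holds 1 TATA box and 2 GC boxes. RefSeq windows were matched for 35 of the 44 genes, which have 38 windows because a gene can have several starts. A GC box was found in 22 of the 38 windows, against 32.7% of all 32851 windows in the table. A CCAAT box was found in 13 of 38 (33.8% of all windows) and a TATA box in 5 of 38 (12.4% of all windows). Genes that rose and genes that fell with age are both represented among windows with a TATA box.

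Per unit of transcript length, the most abundant collagens of the newborn NS hippocampus were the chains of type III and type I fibres. RPKM, the CPM divided by the gene length in kilobases, averaged 30.1 for Col3a1 (29.1 to 31.2 over the 2 libraries), 27.4 for Col1a2 (26 to 28.8), 18.8 for Col1a1 (18.1 to 19.6) and 16.5 for Col4a1 (15.5 to 17.6). None of these neighbouring ranges overlapped. Col9a3 followed at 15.5 RPKM, but its 2 libraries lay at 4.59 and 26.3, so its place in the order is not fixed. In NS at week 8, the highest means were 10.5 RPKM for Col1a2, 10.4 for the neuronal transmembrane collagen Col25a1 and 10.3 for Col4a2, and the ranges of these 3 genes overlapped (2.45 to 18.5, 8.63 to 12.2 and 4.72 to 15.8). In IUGR at week 8 Col25a1 led at 8.68 RPKM, above Col6a1 at 5.41.

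**Figure D1:**
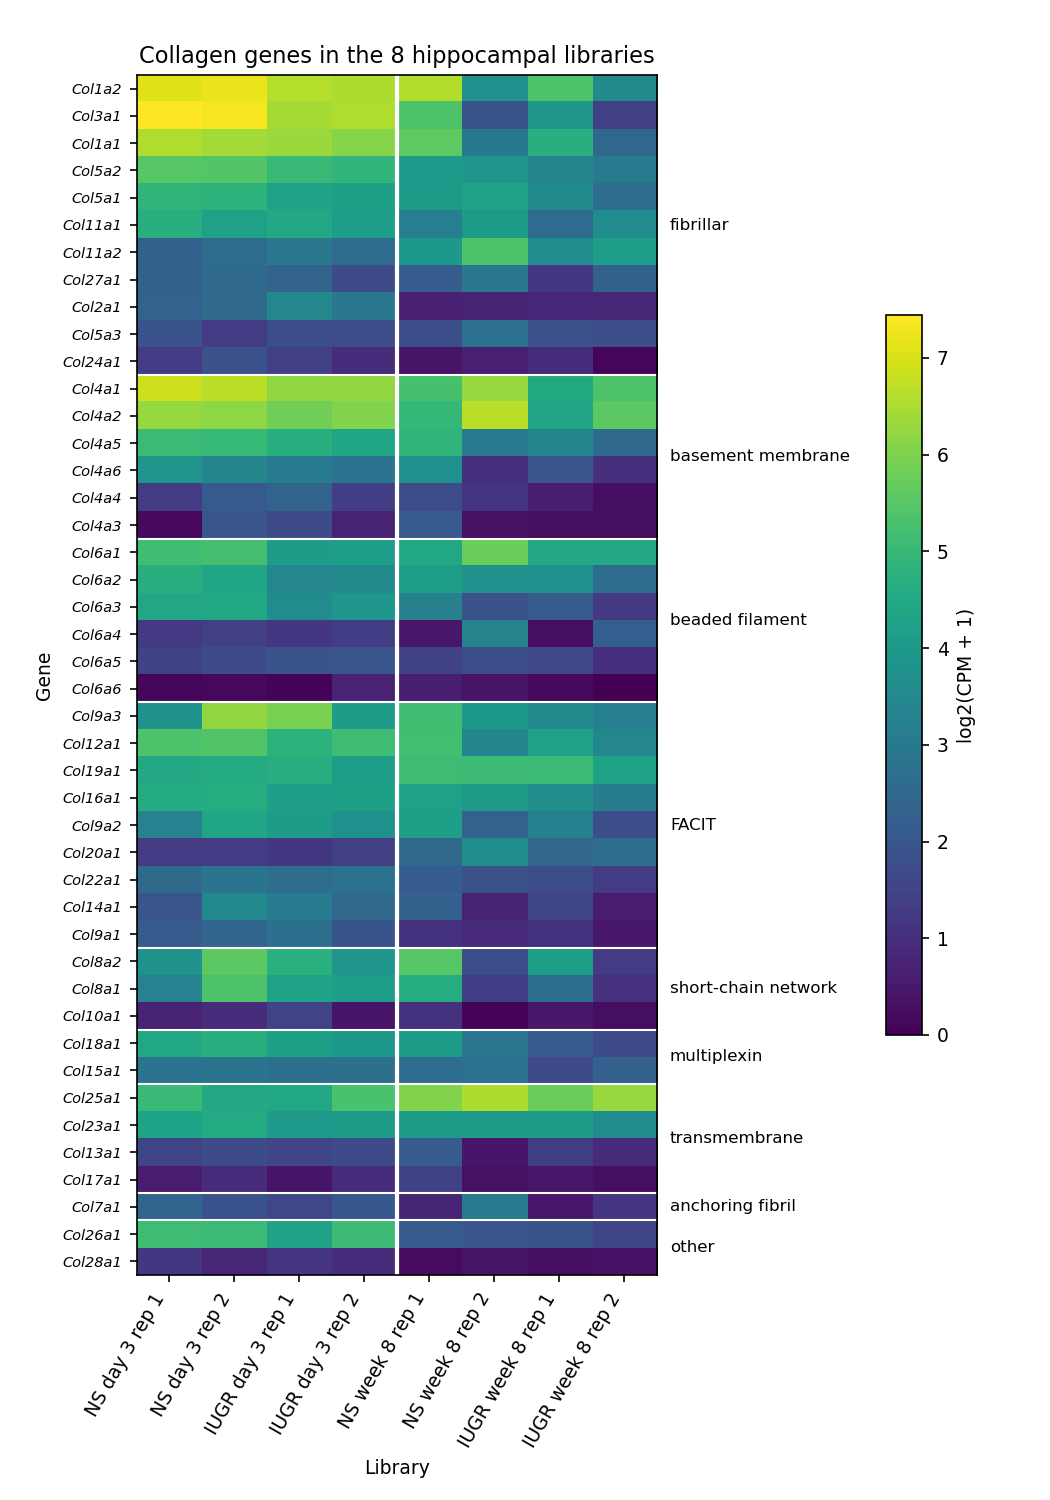
Heat map of log2(CPM + 1) for the 44 collagen genes (vertical axis, grouped by class) in the 8 libraries (horizontal axis, postnatal day 3 left of the white line). The fibrillar genes at the top are bright at postnatal day 3 and vary between replicates at week 8, where Col3a1 ran from 1.65 to 40.5 CPM.

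At postnatal day 3 most collagen genes were lower in the offspring of dexamethasone-injected dams, among them the main chains of type I, III, IV, V and VI collagen. The summed level of the 44 genes was 1099 and 1211 CPM in NS and 862 and 804 for IUGR. The edgeR quasi-likelihood test called none of the 43 collagen genes tested, and none of all 15999 genes (0% in either direction). At an unadjusted p under 0.05, 15 collagen genes were lower, against 3.44% of all genes, and 1 was higher, against 1.62%. Run on the same 4 libraries, DESeq2 called 5 collagen genes lower and none higher, against 0.394% and 0.0125% of all genes, and limma voom called none. A DESeq2 fit blocked by replicate number called 2, Col3a1 and Col6a1 (0.0813% of all genes, all lower). The log2 fold change was below 0 for 34 of 43 collagen genes (50.4% of all genes), with a median of -0.29 against 0 for all genes. Both IUGR libraries lay below both NS libraries for 17 of 43 (16.6% of all genes) and above them for 2, Col2a1 and Col6a5 (19.7% of all genes).

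Among the 11 fibrillar genes, 5 had no overlap with IUGR lower (16.6% of all genes) and 1 with IUGR higher (19.7% of all genes). The summed level of the 11 was 512 and 502 CPM in NS against 360 and 332 for IUGR. Col3a1, the chain of type III collagen of elastic tissues and vessel walls (chromosome 1, 45311538 to 45349706 on GRCm38), stood at 173 and 162 CPM in NS and 86.4 and 93.4 for IUGR. The 2 libraries of each group lay close together and the groups were well apart. Its log2 fold change was -0.91 ± 0.10 (SE; edgeR adjusted p = 0.156), and it was the most firmly called collagen by DESeq2 (adjusted p = 9.98e-08). Without replicate 2 of IUGR, edgeR called Col3a1 and no other collagen (adjusted p = 0.0476), in a fit that leaves 1 IUGR library, which is assumed to vary like the NS pair.

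Type I collagen, the main fibre of bone, skin and meninges, joins Col1a1 chains with a Col1a2 chain. Col1a2 stood at 134 and 148 CPM in NS and 97.7 and 90.6 for IUGR. Col1a1 stood at 92.2 and 84.8 CPM in NS and 79.1 and 66.5 for IUGR. The groups did not overlap for either chain, but the gap was wider for Col1a2. Its log2 fold change was -0.60 ± 0.11 (SE; edgeR adjusted p = 0.338; DESeq2 adjusted p = 0.0117), and that of Col1a1 was -0.29 ± 0.13 (SE), which neither tool called.

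Type V collagen starts and limits the growth of fibrils. Col5a1 stood at 28.1 and 26.9 CPM in NS and 18.4 and 17.6 for IUGR, a log2 fold change of -0.63 ± 0.14 (SE; edgeR adjusted p = 0.485). Col5a2, which lies beside Col3a1 on chromosome 1 (45374321 to 45503282), stood at 44.5 and 43.1 CPM in NS and 31.8 and 29 for IUGR, a log2 fold change of -0.54 ± 0.12 (SE; edgeR adjusted p = 0.515). In both genes each IUGR library was below each NS library, and neither passed the test of either tool. The cartilage-type fibrillar genes had another pattern. Col2a1, the chain of cartilage fibrils, was at 4.06 and 4.91 CPM in NS and 9.86 and 6.72 for IUGR, a log2 fold change of 0.87 ± 0.28 (SE), and did not pass the edgeR test. Col11a1 (24.6 and 18.3 CPM in NS, 21.6 and 17.2 in IUGR) and Col11a2 (3.92 and 5.2 in NS, 6.86 and 5.13 in IUGR) overlapped between groups.

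Of the 6 basement membrane genes, 4 had no overlap with IUGR lower (16.6% of all genes). Col4a1 and Col4a2 code for the chains of the common type IV network and are transcribed away from each other from overlapping 5′ ends on chromosome 8 (Col4a1 ends at 11312826 on the minus strand, Col4a2 starts at 11312805 on the plus strand). Col4a1 stood at 116 and 102 CPM in NS and 72.3 and 73.9 for IUGR, a log2 fold change of -0.59 ± 0.11 (SE; edgeR adjusted p = 0.312; DESeq2 adjusted p = 0.0188). Col4a2 stood at 76.1 and 71.9 CPM in NS and 55.7 and 65 for IUGR, a log2 fold change of -0.31 ± 0.11 (SE). Both partners were lower in both IUGR libraries, by less in Col4a2. The X-linked pair Col4a5 and Col4a6, which form another type IV network, were also apart. Col4a5 stood at 32.7 and 30.5 CPM in NS and 24.8 and 19.8 in IUGR (log2 fold change -0.51 ± 0.16, SE), and Col4a6 at 13.7 and 9.65 CPM in NS and 7.31 and 6.17 in IUGR (-0.80 ± 0.24, SE). Neither passed the test. Col4a3 and Col4a4 were at most at 4.2 CPM and overlapped.

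The beaded filament genes had the largest median difference of the 4 largest classes, a log2 fold change of -0.74 over the 5 tested genes, against -0.45 for fibrillar, -0.41 for basement membrane and -0.13 for FACIT genes. Type VI collagen is assembled from a chain each of Col6a1, Col6a2 and Col6a3. Col6a1 stood at 34.9 and 36.7 CPM in NS and 16.4 and 16.7 for IUGR. The libraries of each group nearly coincided and the groups were far apart. Its log2 fold change was -1.12 ± 0.13 (SE; edgeR adjusted p = 0.156; DESeq2 adjusted p = 1.62e-05). Col6a2 stood at 24.6 and 20 CPM in NS and 9.98 and 10.5 for IUGR, a log2 fold change of -1.13 ± 0.17 (SE; edgeR adjusted p = 0.219; DESeq2 adjusted p = 0.00171). Col6a3 stood at 21.1 and 20.6 CPM in NS and 11.2 and 13.9 for IUGR, a log2 fold change of -0.74 ± 0.16 (SE; edgeR adjusted p = 0.493), and DESeq2 did not call it. All 3 chains were lower in IUGR without overlap. Over the 5 tested genes of the class, 3 were lower without overlap (16.6% of all genes). Col6a5 was higher without overlap (19.7% of all genes), at 1.72 and 2.28 CPM in NS and 2.72 and 2.87 in IUGR. Col6a4 overlapped, with a log2 fold change of -0.11 ± 0.40 (SE).

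**Figure D2:**
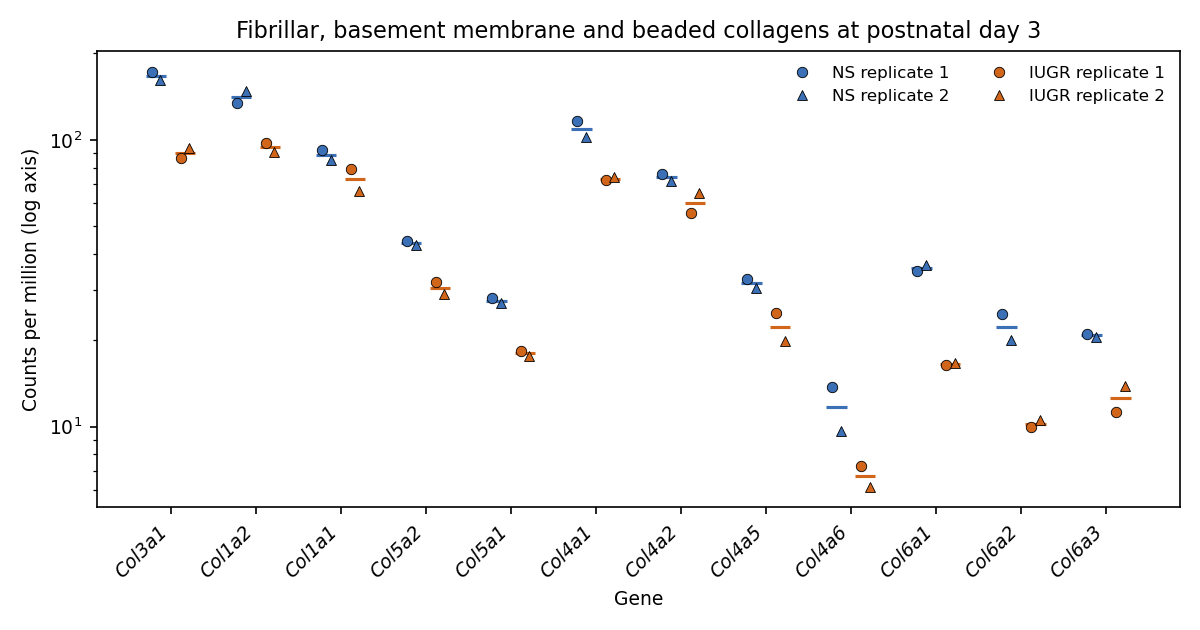
CPM (log axis) of 12 fibrillar, basement membrane and beaded filament genes in the 4 libraries of postnatal day 3, with circles for replicate 1, triangles for replicate 2 and bars for group means. The genes shown are those of these 3 classes whose groups did not overlap with IUGR lower, so that separation is set by the choice, and the gap ran from 86.4 and 93.4 against 173 and 162 CPM in Col3a1 to 55.7 and 65 against 76.1 and 71.9 CPM in Col4a2.

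In the FACIT class, Col12a1 and Col16a1 were the 2 of 9 genes without overlap, both lower in IUGR, against 16.6% of all genes. Col12a1, found on type I fibrils, stood at 40.4 and 41.6 CPM in NS and 27.2 and 33.8 in IUGR (log2 fold change -0.44 ± 0.13, SE). Col16a1 stood at 22.7 and 23.3 CPM in NS and 16.6 and 17.6 in IUGR (-0.44 ± 0.14, SE). Col19a1, made by subsets of neurons, overlapped between the groups at 21.5 and 22.8 CPM in NS and 24 and 16.8 in IUGR. Both multiplexin genes, basement membrane zone collagens whose C-terminal parts are anti-angiogenic fragments, were without overlap. Col18a1 stood at 20.7 and 25.1 CPM in NS and 17.8 and 14.6 in IUGR (-0.51 ± 0.18, SE). Col15a1 stood at 6.12 and 6.22 CPM in NS and 5.73 and 5.73 in IUGR, and its log2 fold change of -0.12 ± 0.21 (SE) was smaller than its SE. Col23a1, a transmembrane collagen, stood at 18.8 and 22.3 CPM in NS and 15.4 and 16.4 in IUGR (-0.39 ± 0.16, SE), while Col25a1 overlapped at 32.3 and 21.5 in NS and 21.1 and 38.7 in IUGR. Col26a1 was at 34.3 and 32.5 CPM in NS and 18.4 and 33.7 in IUGR, so only replicate 1 of IUGR was low. None of these genes passed the test with either tool.

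Among genes that act on collagen, edgeR called none at postnatal day 3. All 15 basement membrane partners (laminins, nidogens, perlecan and others) had a log2 fold change below 0 (50.4% of all genes), with a median of -0.42, and 10 were lower without overlap (16.6% of all genes). Below 0 were also 10 of 13 processing and cross-linking genes, 14 of 21 modification and folding genes, 9 of 10 degradation genes and 7 of 11 receptors, the last with a median of -0.09. Serpinh1, the chaperone of procollagen, was at 78.8 and 95.3 CPM in NS and 59.5 and 50.2 in IUGR (log2 fold change -0.68 ± 0.14, SE; edgeR adjusted p = 0.471; DESeq2 adjusted p = 0.029). Lox, which cross-links fibres, was at 14.2 and 12.5 in NS and 8.45 and 7.11 in IUGR (-0.79 ± 0.20, SE; edgeR adjusted p = 0.602). Nid1, which bridges laminin and type IV collagen, was at 47.7 and 39.5 in NS and 24.4 and 28.3 in IUGR (-0.74 ± 0.14, SE; edgeR adjusted p = 0.393; DESeq2 adjusted p = 0.035). DESeq2 with the replicate block called neither Serpinh1 nor Nid1. Mrc2, an uptake receptor for collagen, was at 22.6 and 19 in NS and 12.5 and 8.82 in IUGR (-0.97 ± 0.22, SE; edgeR adjusted p = 0.515).

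Markers of several cell types were lower in IUGR at postnatal day 3, with no edgeR call. Of 20 markers of meningeal fibroblasts, all 19 tested were lower in IUGR (median log2 fold change -0.92), 18 of them without overlap (16.6% of all genes), and DESeq2 called 11 (0.394% of all genes), or 3 with the replicate block (0.0813%). Their summed level was 1164 and 953 CPM in NS and 385 and 469 in IUGR, and Lmx1b was at 0 in at least 1 library. Ptgds alone held 546 and 362 CPM of these sums in NS and 61.7 and 118 in IUGR. All 15 endothelial markers were lower (median -0.43, 12 without overlap against 16.6% of all genes, summed level 259 and 231 against 177 and 165 CPM). Lower too were 13 of 15 mural cell markers (median -0.45, 10 without overlap, summed level 185 and 172 against 129 and 132 CPM). So were 11 of 12 astrocyte markers (median -0.30, 5 without overlap), 12 of 15 oligodendrocyte markers (median -0.17) and 15 of 15 choroid plexus markers (median -0.74, none without overlap), while 10 of 15 neuron markers (median -0.03) and 6 of 12 interneuron markers (median -0.08) were. The part of these cells in the collagen difference was not tested. Rpph1 held 7.44% and 6.39% of the counts in NS and 4.95% and 4.91% in IUGR. With small non-coding genes left out of the counts the collagen median was -0.29, as with them, and edgeR called no collagen. Within replicate number 1 the median collagen difference in log2(CPM + 1) was -0.13 and within number 2, the libraries with Xist, it was -0.47, with medians of -0.01 and 0.03 for all genes, and 26 and 34 of 43 collagen genes were below 0 (51% and 44.5% of all genes). Col6a1 (-1.05 and -1.09) and Col4a1 (-0.68 and -0.47) were lower within both numbers.

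Another set of collagens had the same order over the libraries of postnatal day 3 as the sum of the choroid plexus markers. At postnatal day 3 the summed choroid markers were 104 and 6419 CPM in NS and 3299 and 471 in IUGR. Ttr alone held 63.1 and 6050 CPM of these sums in NS and 3110 and 413 in IUGR. The order of the sums from low to high was NS replicate 1, IUGR replicate 2, IUGR replicate 1 and NS replicate 2. Col8a1, Col8a2, Col9a2, Col9a3, Col14a1 and Col4a3, 6 of 43 collagen genes, had exactly this order, against 3.87% of all genes. At week 8, 9 of 43 had the order of the summed choroid markers (2.88% of all genes), and Col9a3 was the only gene in both sets. The week 8 order from low to high was IUGR replicate 2, IUGR replicate 1, NS replicate 2 and NS replicate 1. It puts IUGR below NS, and all 9 genes are among the 12 lower in IUGR without overlap at week 8. The marker sum was 6893 CPM in NS replicate 1 but 91.9 in NS replicate 2 and 86.2 and 74.5 in IUGR. Ttr alone held 6460 and 47.4 CPM of these sums in NS and 44.2 and 22.2 in IUGR. The order of this sum and a treatment difference cannot be told apart at that age. Of the 15 choroid markers taken singly, 3 were lower in IUGR without overlap at week 8 (9.01% of all genes). At postnatal day 3 Col9a3 stood at 13.1 and 74.9 CPM in NS and 60.7 and 16.4 in IUGR. Col8a2, a short-chain network collagen known from the basement membrane of the cornea, stood at 13 and 46.1 CPM in NS and 25.3 and 13.6 in IUGR. Its partner chain Col8a1 stood at 8.94 and 40.5 in NS and 18.7 and 16.9 in IUGR. Col9a2 stood at 8.87 and 20.2 CPM in NS and 15.8 and 12.2 in IUGR. The groups overlapped in all of these genes, and the part of choroid plexus tissue was not tested.

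**Figure D3:**
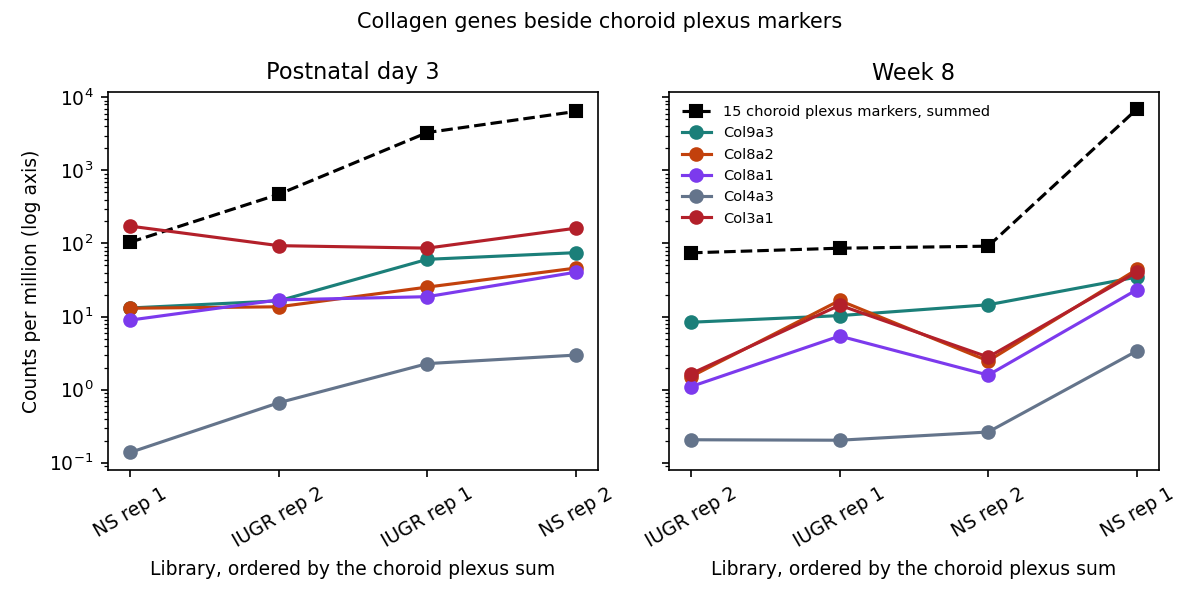
CPM (log axis) of the summed 15 choroid plexus markers and of 5 collagen genes, with the 4 libraries of each age ordered by the marker sum. At postnatal day 3 Col9a3, Col8a2, Col8a1 and Col4a3 climb with the marker sum (104 to 6419 CPM) while Col3a1 does not, and at week 8 Col9a3 alone of the 5 keeps the order. The week 8 order puts both IUGR libraries below both NS libraries.

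At week 8 collagen genes again tended to lie lower in IUGR, but the spread between replicates was several times that at postnatal day 3 (biological coefficient of variation 0.506 against 0.154), and no collagen gene passed. The summed level was 740 and 624 CPM in NS and 410 and 348 in IUGR. edgeR, DESeq2 and limma voom each called none of the 43 collagen genes (0% of all genes by edgeR), while DESeq2 called 1 other gene, a choroid plexus marker. At an unadjusted p under 0.05 edgeR found 1 collagen, Col18a1, lower (0.2% of all genes) and none higher (0.0188%). The log2 fold change was below 0 in 40 of 43 (52.6% of all genes), with a median of -0.85 against -0.02. Without replicate 1 of NS the collagen median was -0.34. Both IUGR libraries were below both NS libraries in 12 genes (9.01% of all genes) and above them in 1, Col2a1 (4.08%).

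Col18a1 was at 15.7 and 6.58 CPM in NS and 3.52 and 2.33 in IUGR, without overlap, and its log2 fold change was -1.88 ± 0.60 (SE; edgeR adjusted p = 1). Col5a1 was at 15.6 and 18.7 CPM in NS and 10.5 and 5.28 in IUGR (-1.07 ± 0.48, SE), and Col5a2 at 15.1 and 14 in NS and 9.33 and 7.34 in IUGR (-0.76 ± 0.37, SE). Col9a3 was at 34.7 and 14.5 CPM in NS and 10.3 and 8.36 in IUGR (-1.35 ± 0.53, SE). In these 4 genes the groups did not overlap and the tests did not pass. Col16a1 (18 and 16.4 in NS, 12.1 and 7.75 in IUGR), Col15a1 (5.37 and 5.9, 2.1 and 3.84), Col6a2 (17 and 12.7, 12.5 and 5.14), Col19a1 (34.2 and 33.6, 32.5 and 18.5) and Col26a1 (3.3 and 2.9, 2.77 and 1.92) were also apart. Col5a1, Col5a2, Col6a2, Col15a1, Col16a1 and Col18a1 were lower in IUGR without overlap at both ages, which held for 2.09% of all genes.

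For many members the replicate number separated the week 8 libraries more than the treatment. Replicate 2 was lower than replicate 1 by over 1 in log2(CPM + 1) in both groups for 7 collagen genes (Col1a1, Col1a2, Col3a1, Col8a1, Col8a2, Col9a2 and Col14a1, against 6.52% of all genes) and higher by over 1 for 2 (Col4a2 and Col6a4, against 7.34%). Col3a1 was at 40.5 and 2.79 CPM in NS and 14.3 and 1.65 in IUGR. Col1a2 was at 95.1 and 12.6 in NS and 40.7 and 10.8 in IUGR, and Col1a1 at 47.7 and 7.11 in NS and 24.9 and 4.73 in IUGR. Col8a2 was at 44.1 and 2.47 in NS and 16.6 and 1.51 in IUGR, Col8a1 at 23.3 and 1.58 in NS and 5.41 and 1.1 in IUGR, and Col9a2 at 17.4 and 4.05 in NS and 8.66 and 2.47 in IUGR. In all 6 genes both replicates 1 were above both replicates 2, and within each number IUGR was below NS.

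Further members were also lower in replicate 2 of both groups, or had the reverse order. Col4a5 was at 28.4 and 7.21 CPM in NS and 9.2 and 4.87 in IUGR, Col4a6 at 12.4 and 1 in NS and 2.91 and 1.03 in IUGR, Col6a3 at 8.37 and 2.58 in NS and 3.52 and 1.37 in IUGR, and Col12a1 at 35.8 and 9.74 in NS and 18.3 and 10 in IUGR. Other genes had the reverse order. Col4a1 was at 37.6 and 77.7 CPM in NS and 22 and 40.4 in IUGR, and Col4a2 at 30.3 and 101 in NS and 19.3 and 46.3 in IUGR. Col11a1 was at 8.06 and 15.6 in NS and 5.07 and 11.2 in IUGR, and Col11a2 at 14.7 and 40 in NS and 11.4 and 17.1 in IUGR. Col25a1 was at 64.5 and 91.3 in NS and 52.6 and 77.3 in IUGR. Col6a1 was higher in replicate 2 of NS alone, at 20.8 and 53.8 in NS and 21.5 and 21.5 in IUGR, and Col23a1 was slightly lower in replicate 2, at 16.4 and 15.7 in NS and 16.1 and 11 in IUGR. Replicate 2 was the higher NS library for the vessel-type IV chains and the neuronal Col25a1, and the lower for the type I and III fibre chains.

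**Figure D4:**
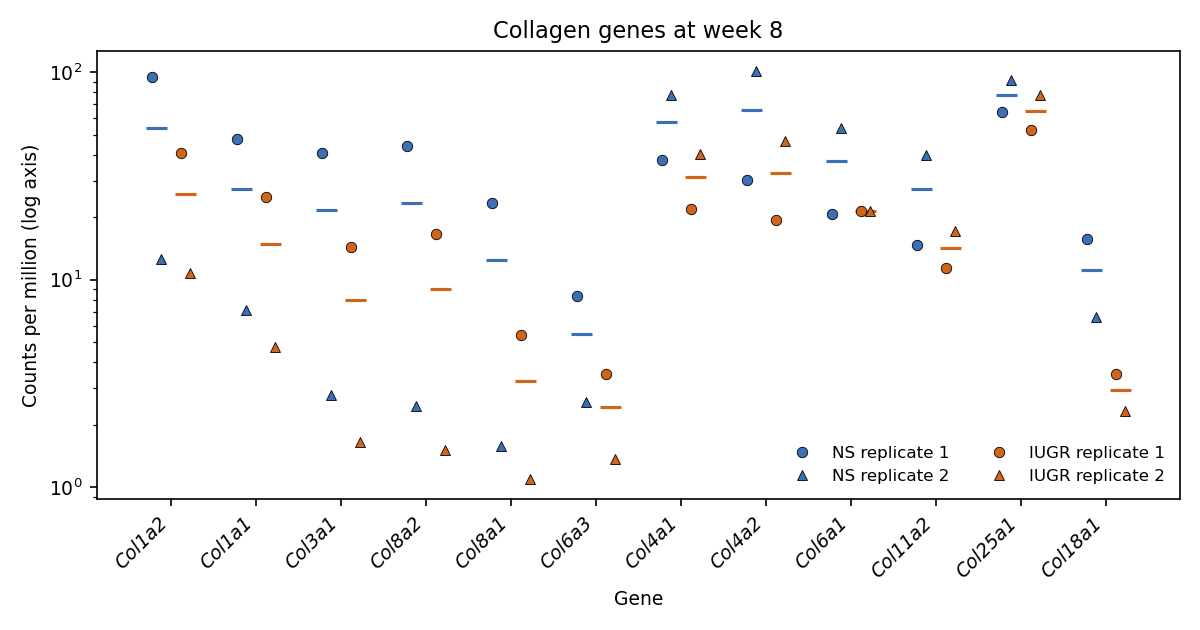
CPM (log axis) of 12 collagen genes in the 4 libraries of week 8, with circles for replicate 1, triangles for replicate 2 and bars for group means. In Col1a2, Col1a1, Col3a1, Col8a2 and Col8a1 both triangles lie below both circles, in Col4a1, Col4a2, Col11a2 and Col25a1 each triangle lies above the circle of its group, and only in Col18a1 are both IUGR libraries below both NS libraries.

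Within replicate number 1 and number 2 the median collagen difference of IUGR from NS in log2(CPM + 1) was -0.63 and -0.53, with -0.05 and -0.04 for all genes, and 37 and 38 of 43 collagen genes were below 0 (58.3% and 54.7% of all genes). Some cell type markers differed too. The 15 endothelial markers summed to 305 and 295 CPM in NS and 197 and 213 in IUGR, and the 15 mural markers to 282 and 183 against 143 and 111. The 20 meningeal fibroblast markers summed to 2691 and 670 CPM in NS and 1293 and 846 in IUGR. Ptgds alone held 1850 and 410 CPM of these sums in NS and 901 and 565 in IUGR. The median difference of the 19 meningeal markers tested was -0.98 within number 1 and 0.02 within number 2, with 19 and 8 below 0. Of the 19, 2 were lower without overlap (9.01% of all genes). The choroid markers were at 6893 CPM in replicate 1 of NS and between 74.5 and 91.9 in the others. Their part in the collagen values was not tested.

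The difference between the IUGR effects at the 2 ages was tested as an interaction in a model of all 8 libraries. edgeR, DESeq2 and limma voom called no collagen gene (0% of all genes by edgeR), and no collagen gene had an unadjusted edgeR p under 0.05 (0.294% of all genes higher and 0.219% lower). The interaction was below 0 in 38 of 43 collagen genes (49.1% of all genes), with a median of -0.54. That median was -0.18 without replicate 1 of NS at week 8 and -0.99 without replicate 1 of IUGR at week 8.

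Between postnatal day 3 and week 8, averaged over NS and IUGR, 11 of 43 collagen genes fell and 3 rose (edgeR adjusted p under 0.05; 16.9% of all genes fell and 19.1% rose). The log2 fold change was below 0 in 35 of 43 (49.1% of all genes), with a median of -0.98 against 0.02 for all genes. By class, 4 of 11 fibrillar, 1 of 6 basement membrane, 1 of 5 beaded filament, 2 of 9 FACIT, 1 of 2 multiplexin and both other genes fell, and 1 fibrillar, 1 FACIT and 1 of 4 transmembrane genes rose. Libraries of the ages did not overlap in 10 collagen genes that were lower at week 8 (26% of all genes) and 3 that were higher (21.1%). The count of 14 called genes was 8 without any 1 of the 4 libraries of postnatal day 3 and 22 without replicate 1 of NS at week 8, and it was 0 when both replicates 1 or both replicates 2 of postnatal day 3 were left out.

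The largest falls were in Col26a1, Col3a1 and Col2a1. Col26a1, an extracellular collagen of the developing gonads, fell from between 18.4 and 34.3 CPM at postnatal day 3 to between 1.92 and 3.3 CPM at week 8 (log2 fold change -3.38 ± 0.27, SE; edgeR adjusted p = 0.000615). Col3a1 fell by 3.16 ± 0.92 on the log2 scale (SE; edgeR adjusted p = 0.0371), and the lowest library of postnatal day 3, 86.4 CPM, was above the highest of week 8, 40.5 CPM. Col2a1 fell by 3.01 ± 0.28 (SE; edgeR adjusted p = 0.000925), from at least 4.06 CPM to at most 0.811 CPM. These 3 genes had no overlap between the ages. Col5a2, with low spread at both ages, fell by 1.66 ± 0.15 (SE; edgeR adjusted p = 0.000937), and Col5a1 fell by 0.87 ± 0.24 (SE; edgeR adjusted p = 0.0324). Col18a1 fell by 1.69 ± 0.32 (SE; edgeR adjusted p = 0.00861), Col6a3 fell by 2.08 ± 0.45 (SE; edgeR adjusted p = 0.0136) and Col4a1 fell by 1.01 ± 0.30 (SE; edgeR adjusted p = 0.0382). The weaker members Col9a1, Col22a1 and Col28a1, at most at 6.28 CPM in any library, fell as well.

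DESeq2 called 21 collagen genes for age, 3 higher and 18 lower (24.2% and 20.6% of all genes), and limma voom called 18. The type I chains were called by DESeq2 but not by edgeR. The log2 fold change was -1.93 ± 0.69 (SE; edgeR adjusted p = 0.0684; DESeq2 adjusted p = 0.00797) for Col1a1 and -1.57 ± 0.66 (SE; edgeR adjusted p = 0.105; DESeq2 adjusted p = 0.0281) for Col1a2. Both chains were far higher in replicate 1 than in replicate 2 of NS at week 8, and for Col1a2 that library, at 95.1 CPM, lay inside the range of postnatal day 3. Col4a5 (-1.19 ± 0.44, SE; edgeR adjusted p = 0.0747; DESeq2 adjusted p = 0.0252) and Col11a1 (-0.98 ± 0.34, SE; edgeR adjusted p = 0.0634; DESeq2 adjusted p = 0.0258) were likewise called by DESeq2 alone.

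The genes that rose were Col20a1, Col11a2 and Col25a1, each without overlap between the ages. Col25a1, a neuronal collagen whose shed ectodomain is found in amyloid plaques, rose by 1.40 ± 0.28 (SE; edgeR adjusted p = 0.0108), from between 21.1 and 38.7 CPM to between 52.6 and 91.3 CPM. Col11a2, a chain of cartilage fibrils, rose by 1.99 ± 0.37 (SE; edgeR adjusted p = 0.00821), from at most 6.86 CPM to at least 11.4 CPM. Col20a1, a FACIT collagen, rose by 2.18 ± 0.35 (SE; edgeR adjusted p = 0.00507), from at most 1.65 CPM to at least 4.46 CPM. Of 15 hippocampal neuron markers 8 rose and 2 fell with age, against 19.1% and 16.9% of all genes. Their summed levels ran from 906 to 1152 CPM at postnatal day 3 and from 1458 to 6688 CPM at week 8. Camk2a alone ran from 49 to 100 CPM at postnatal day 3 and from 682 to 5320 CPM at week 8. The part of these markers in the rise of Col25a1 was not tested.

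**Figure D5:**
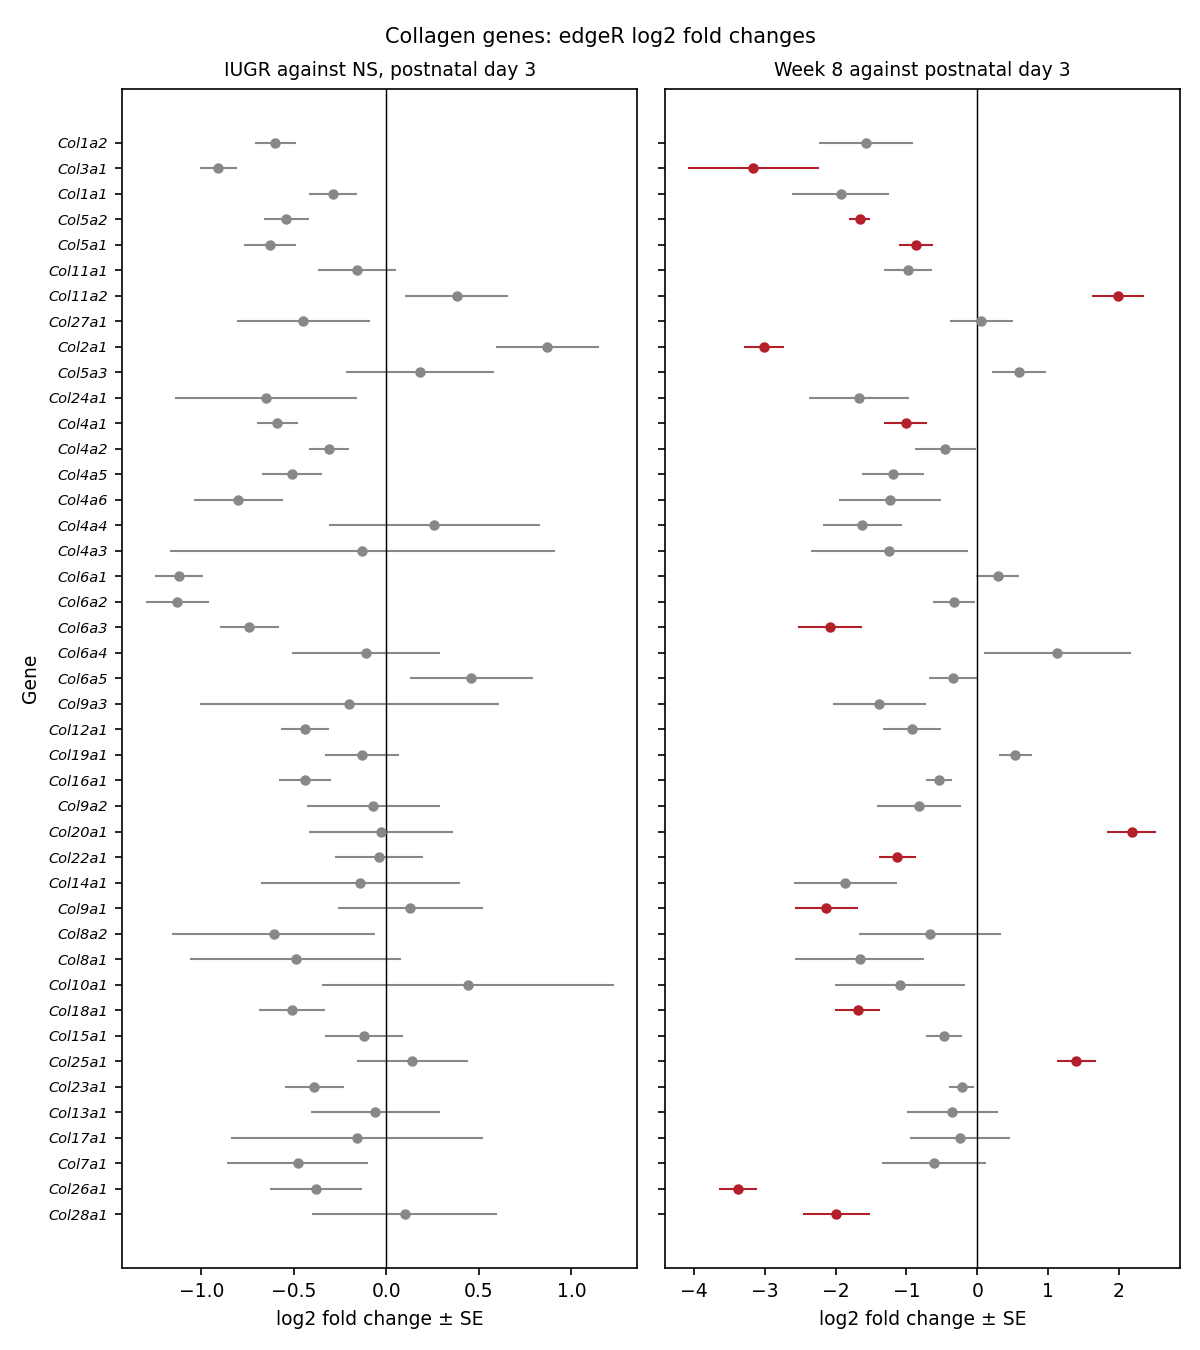
edgeR log2 fold change ± SE (horizontal axes, different scales) of the 43 tested collagen genes for IUGR against NS at postnatal day 3 (left) and week 8 against postnatal day 3 (right), with genes in red where the adjusted p was under 0.05. No gene is red on the left, where most points lie below 0, and 14 are red on the right, 11 of them below 0.

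Genes that make and degrade collagen were called for age in both directions, in shares to be read against the 19.1% of all genes that rose and the 16.9% that fell. Of 21 modification and folding genes, 6 rose and 5 fell: P4hb and Ppib, which fold procollagen, fell by 0.87 ± 0.14 (SE; edgeR adjusted p = 0.00508) and fell by 0.91 ± 0.14 (SE; edgeR adjusted p = 0.00404), while the prolyl hydroxylase subunits P4ha1 (1.14 ± 0.19, SE; edgeR adjusted p = 0.00535) and P4ha2 (1.09 ± 0.19, SE; edgeR adjusted p = 0.00613) rose. Of 13 processing and cross-linking genes, 1 rose and 3 fell, with Lox the largest fall, from between 7.11 and 14.2 CPM to between 0.369 and 2.3 CPM (-3.13 ± 0.52, SE; edgeR adjusted p = 0.00554). Of 10 degradation genes tested, Timp4 (2.11 ± 0.23, SE; edgeR adjusted p = 0.0014) and Timp3 (0.81 ± 0.17, SE; edgeR adjusted p = 0.013), inhibitors of matrix proteases, rose, and the protease gene Mmp2 fell by 1.92 ± 0.31 (SE; edgeR adjusted p = 0.00502). Of 11 receptors tested, 2 rose and 2 fell. Cd93 fell by 1.44 ± 0.20 (SE; edgeR adjusted p = 0.00298) and Itgb1 fell by 0.97 ± 0.18 (SE; edgeR adjusted p = 0.00883). The receptors that rose were Ddr1 (0.85 ± 0.23, SE; edgeR adjusted p = 0.029) and Lair1 (1.10 ± 0.33, SE; edgeR adjusted p = 0.0392). Of 15 basement membrane partners, Nid2 fell by 2.55 ± 0.46 (SE; edgeR adjusted p = 0.0075) and Sparc, a collagen-binding glycoprotein, rose by 0.92 ± 0.21 (SE; edgeR adjusted p = 0.0171). Of 19 meningeal fibroblast markers tested 3 rose, against 19.1% of all genes, and none fell, against 16.9%. Ptgds rose by 2.24 ± 0.51 (SE; edgeR adjusted p = 0.0172).

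The 18 members with a mean under 5 CPM ran from a mean of 0.236 CPM for Col6a6, which did not pass the count filter, to 4.07 CPM for Col20a1. The anchoring fibril gene Col7a1 ranged from 0.406 to 7.63 CPM over the 8 libraries. Where a gene had no count, up to 3 counts (0.158 to 0.23 CPM by library) were possible, and Col6a6 had 0 counts in replicate 2 of IUGR at week 8.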

How the data were processed

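Hippocampal total RNA was depleted of ribosomal RNA and sequenced in paired ends from 8 libraries, per the labels' protocols. Per the submitters' processing notes, the tools included featureCounts 1.6.1, HISAT2 2.1.0, DESeq2 1.26.0, cutadapt 1.16 and SAMtools 1.9, with build mm10 and no stated roles. The annotation and the use of strand or multi-mapped reads are, in the sources used here, not given, so near-identical or antisense genes are uncertain. The authors deposited raw counts per gene and a gene length in bases (other unit), used for RPKM. Their normalized signal, the deposited count divided by 1 size factor per library, was only checked against the counts.

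Groups come from the treatment labels and replicate numbers from the titles. Counts were fitted with edgeR 4.0.16 (R 4.3.3; TMM, default expression filter, 15999 genes), quasi-likelihood F test, Benjamini-Hochberg adjustment over all genes, threshold 0.05. IUGR against NS used the 4 libraries of that age; the interaction and age comparisons used all 8. The SE is the log2 fold change divided by the square root of F. DESeq2 1.42.0, limma 3.58.1 (voom) and other filters, scalings and left-out libraries were alternatives. The fits were tested on simulated data. The replicates of each group differed beyond sampling noise. Members and gene lists were chosen with earlier results of these data known. Values of every library are given for members with a mean of at least 5 CPM. Partner and marker genes named are some of those called, or else of those with the smallest p. Gene positions are GENCODE M21 on GRCm38, and promoters are RefSeq on GRCm38.p6. Floors (3 counts) cover counting error only, while the SE also takes in the spread between these libraries.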

Additional observations from a re-analysis of the deposited data

How the results depend on the processing

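Of the gene-level fold changes named above, all but 1 kept their direction under every alternative. Col26a1 at postnatal day 3 was at 0.02 on the log2 scale without replicate 1 of both groups (alternative added after seeing the data). For IUGR against NS at postnatal day 3, DESeq2 called 65 genes and 5 collagens, no count filter gave 26 and 3, and leaving out single libraries gave 0 to 13 genes and 0 to 1 collagens, with the collagen median between -0.45 and -0.20. It was -0.19 with the edgeR replicate block, -0.50 without number 1 and -0.18 without number 2 of both groups. At week 8, DESeq2 called 1 gene and DESeq2 with a replicate block 3, and leaving out number 1 of both week 8 groups gave 2 genes, and 2 for the interaction. Leaving out single libraries moved the collagen median between -1.13 and -0.34 at week 8 and between -0.99 and -0.18 for the interaction. For age, NS alone gave 2263 genes and 6 collagens with a collagen median of -0.56, and IUGR alone 2691 and 7. Leaving out both numbers 1 of postnatal day 3 gave 0 and 0, both numbers 2 gave 15 and 0, both numbers 1 of week 8 gave 11291 and 33 with a median of -1.77, and both numbers 2 gave 8857 and 25. Of 22 age alternatives, the 14 called collagens were called in 12 (Col5a1) to 20 (Col26a1, Col2a1, Col5a2 and Col20a1). Leaving out single libraries gave 2788 to 7482 genes, 8 to 22 collagens and medians from -1.51 to -0.76. The cause of these differences was not tested.

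The labels do not pair the replicate numbers, and 2 pairs per age are too few to show a pairing. Replicate differences of NS and IUGR correlated at -0.0747 over 15999 genes at postnatal day 3 and at 0.854 at week 8. With the replicate number as a block, edgeR called 0 collagens at either age, DESeq2 called 13 genes and 2 collagens (Col3a1 and Col6a1) at postnatal day 3, and edgeR called 19 collagens for age. With 2 libraries per group, small differences were not detectable.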
